A study of Mus musculus with 12 samples.

Results

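The genes described here are 10 genes of plasma proteins made by the liver, Alb, Afp, Ttr, Apoe, Apob, Fga, Fgb, Fgg, Ahsg and Rbp4, out of 55487 genes in the count table. They were taken as a fixed list of names, chosen with earlier results of these data known. Each name was matched to 1 Ensembl identifier through the GENCODE M21 annotation of the mouse genome, build GRCm38.

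RNA was sequenced from Hepa1 cells, an established mouse hepatoma line whose genotype label is wild type, and from primary mouse embryonic fibroblasts (MEFs) labelled Bach1-/-. The cells grew for 4 days in medium that immortalised MEFs had conditioned for 48 h, replaced every day. Ferroptotic medium came from immortalised MEFs in which Bach1, a heme-binding transcriptional repressor, was re-expressed, and control medium came from control immortalised MEFs. Ferroptosis is a form of cell death driven by iron and lipid peroxidation. The 4 groups, with 3 libraries each, were Hepa1 in ferroptotic medium, Hepa1 in control medium, MEFs in ferroptotic medium and MEFs in control medium. All of them received 0.1 mM 2-mercaptoethanol and 0.4 mg/mL vitamin E in medium with 10% fetal bovine serum, so each comparison was made in the presence of both agents. Hepa1 is 1 established line, and the MEFs carry the Bach1 deletion in both media. In levels and in responses to the medium, cell type and Bach1 genotype therefore cannot be told apart. The labels do not state whether the 3 replicates of a group were separate cultures.

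Hepatocytes secrete most plasma proteins. Albumin (Alb) carries fatty acids, hormones and drugs and sets most of the colloid pressure of plasma. Alpha-fetoprotein (Afp) is its relative in the fetus, whose gene is switched off in the liver after birth and comes back in many liver tumours. Retinol-binding protein (Rbp4) carries vitamin A out of the liver in a complex with transthyretin (Ttr). Apolipoprotein B (Apob) is the structural protein of very low density lipoproteins, and apolipoprotein E (Apoe) is the ligand by which remnant particles are taken up. Fga, Fgb and Fgg encode the chains of fibrinogen, the clot protein, and Ahsg encodes fetuin-A, a plasma protein that binds calcium phosphate.

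Alb, Afp and Gc, the gene of the vitamin D binding protein, belong to the albumin gene family and lie on mouse chromosome 5. Their promoters are shown because these relatives differed in their change with the medium, with Alb higher, Afp little changed and Gc at 0 reads in Hepa1 in ferroptotic medium. The windows are from RefSeq (GRCm38.p6) and run from 250 bases before to 50 bases after the start of transcription, read 5′ to 3′ on the gene's strand. Of the 10 plasma protein genes, 9 have a window in the table. Capitals mark matches, on either strand, to the D box bound by the PAR bZIP factors HLF, DBP and TEF (TTNTGTAA, N being any base), to the CCAAT box (CCAAT) and to the TATA box (TATAAA). No base fell in matches to 2 of these motifs.
Alb, chr5:90460620-90460919, plus strand: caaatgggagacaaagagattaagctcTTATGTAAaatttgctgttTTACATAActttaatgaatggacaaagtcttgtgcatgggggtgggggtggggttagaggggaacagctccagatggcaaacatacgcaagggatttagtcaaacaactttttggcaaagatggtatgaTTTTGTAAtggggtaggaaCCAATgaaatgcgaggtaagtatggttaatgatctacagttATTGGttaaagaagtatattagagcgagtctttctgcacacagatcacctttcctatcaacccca
Afp, chr5:90490464-90490763, plus strand: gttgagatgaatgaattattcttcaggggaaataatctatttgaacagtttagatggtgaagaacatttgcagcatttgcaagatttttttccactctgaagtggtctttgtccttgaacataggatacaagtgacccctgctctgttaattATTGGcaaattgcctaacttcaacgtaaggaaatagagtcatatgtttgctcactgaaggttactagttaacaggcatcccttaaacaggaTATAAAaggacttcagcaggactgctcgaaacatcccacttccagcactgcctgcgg
Gc, chr5:89457849-89458148, minus strand: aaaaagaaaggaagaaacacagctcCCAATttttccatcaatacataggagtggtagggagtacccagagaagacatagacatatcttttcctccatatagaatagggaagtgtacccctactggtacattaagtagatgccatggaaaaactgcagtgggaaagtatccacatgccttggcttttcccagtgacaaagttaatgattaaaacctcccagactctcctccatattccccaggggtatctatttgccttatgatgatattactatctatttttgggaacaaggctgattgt
The Alb window held 3 D box matches, whose first bases lay at -223, -204 and -75 from the start, and neither the Afp window nor the Gc window held one. Positions are counted from the RefSeq start, which for Alb and Afp lies upstream of the GENCODE M21 gene start given below. Each of the 3 windows held the CCAAT box, starting at -56 and -15 in Alb, at -98 in Afp and at -225 in Gc. Of 32851 promoter windows in the table, 4.03% held the D box, 37.4% the CCAAT box and 13.6% the TATA box, which among these 3 windows only Afp held. The motifs were chosen with the expression values known, and a match is a string of letters, not a measured binding site.

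The libraries held 18582713 to 23397981 counted reads each, so that 3 reads, taken as the floor of a library, correspond to 0.128 to 0.161 CPM (CPM, counts scaled to a library total of 1e6, are used for levels). The hepatocyte label of Hepa1 rested on few genes. Of 11 hepatocyte markers, 3 had more than 9 reads summed over the group in ferroptotic medium and 2 in control medium, and their summed level, which was almost all Alb, was 305 to 330 CPM in ferroptotic and 31.7 to 38.9 CPM in control libraries. Apoa1 had 0 reads in all 12 libraries. Hnf4a, the gene of the nuclear receptor that maintains hepatocyte identity, had 0 reads in ferroptotic and 1 read in control medium over 3 Hepa1 libraries each. Markers of other cell types were read in Hepa1 too, and 11 fibroblast markers summed to 489 to 510 CPM in ferroptotic and 398 to 454 CPM in control medium, against 23374.5 CPM or more in every MEF library. Hepa1 ferroptotic replicate 3 held more reads of the fibroblast collagen gene Col1a2 (368 reads) than replicates 1 and 2 (23 and 19 reads) or the control libraries (12, 13 and 13 reads). The part of these marker genes in the results below was not tested, and in bulk RNA fewer expressing cells and less RNA per cell cannot be told apart.

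**Figure D1:**
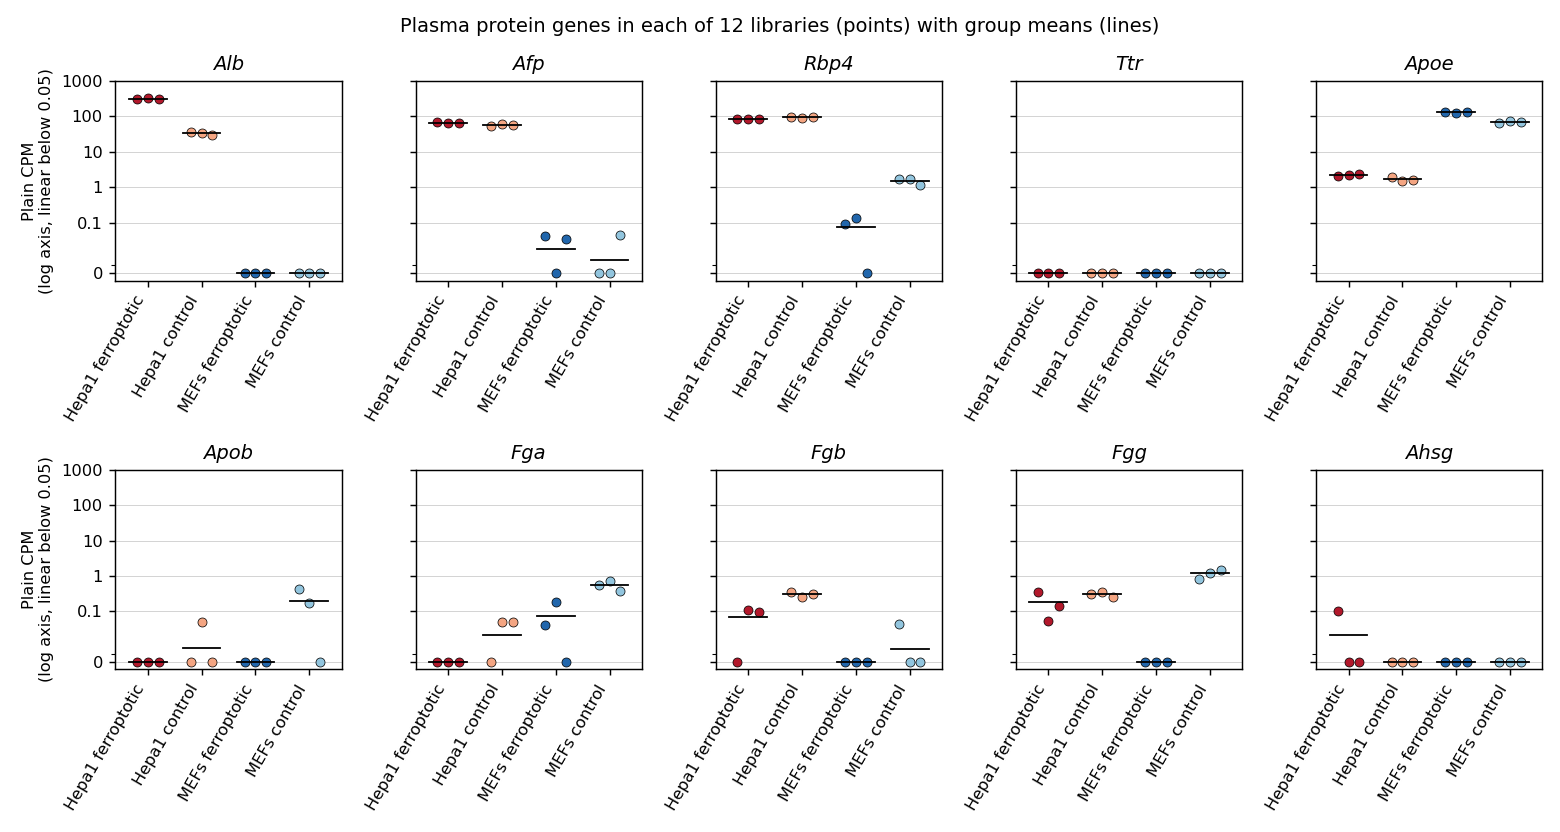
Plain CPM (scaled to the library total only) of the 10 genes in each of 12 libraries, on a logarithmic axis that is linear below 0.05. Points are libraries, lines are means of 3 libraries, and colours are the 4 groups. Alb stands at 302 to 327 CPM in Hepa1 in ferroptotic medium and at 29.8 to 37.1 CPM in control medium, Apoe is highest in MEFs, and Ttr is at 0 throughout.

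In Hepa1, 3 of the 10 genes (Alb, Afp and Rbp4) had 579 reads or more in every library, Apoe had 31 to 50, and the other 6 had at most 7. Per kilobase of exon, the order of levels differed between the media. In ferroptotic medium Alb led with 133 ± 5.88 CPM per kilobase, before Rbp4 (62.5 ± 0.868), Afp (19.8 ± 0.691) and Apoe (1.07 ± 0.0766; SD, n = 3 each). In control medium Rbp4 led with 70.7 ± 1.95, before Afp (17.4 ± 0.931), Alb (14.4 ± 1.55) and Apoe (0.792 ± 0.0964; SD, n = 3 each). The Afp level per kilobase was above that of Alb in each of the 3 control libraries, by factors of 1.04 to 1.38, and 0.141 to 0.159 times that of Alb in the ferroptotic libraries. Together the 10 genes took 0.0464 ± 0.00145% of all counts in ferroptotic and 0.0190 ± 0.000118% in control medium (SD, n = 3 each). This rise was carried by Alb, with 18220 reads summed over the ferroptotic and 1988 over the control libraries. Rbp4 had 4921 and 5610, Afp 3918 and 3470 and Apoe 134 and 100 reads, so the share does not describe the set as a whole.

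Alb rose 8.95-fold in Hepa1 in ferroptotic medium. It had 5964, 6073 and 6183 reads in the 3 ferroptotic libraries, against 730, 679 and 579 reads in the 3 control libraries. The groups lay far apart, and the lowest ferroptotic library held several times the reads of the highest control library. After scaling, Alb averaged 306 ± 13.7 CPM in ferroptotic and 34.2 ± 3.50 CPM in control medium (SD, n = 3 each), a log2 change of 3.16 ± 0.0532 (SE) with an adjusted p of 9.57e-27. The p-values of single genes here come from edgeR's quasi-likelihood test on the 6 libraries of the cell type, with Benjamini-Hochberg adjustment over all genes tested, and a gene is called at an adjusted p under 0.05. Of 13169 genes tested in Hepa1, 58.1% were called, 29.3% higher and 28.8% lower, with a median log2 change of 0.0045 and a median size of change of 0.22. Without any 1 of the 6 libraries the log2 change of Alb lay between 3.09 and 3.23. Alb lies at chr5:90460897-90476602 (plus strand, ENSMUSG00000029368). MEFs had 0 Alb reads in all 6 libraries.

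Afp, whose gene starts 29.8 kb downstream of the start of Alb on the same strand (chr5:90490737-90508907, ENSMUSG00000054932), changed 1.101-fold. It had 1367, 1233 and 1318 reads in Hepa1 in ferroptotic medium, against 1092, 1232 and 1146 reads in control medium. The lowest ferroptotic library and the highest control library differed by 1 read. Afp averaged 65.8 ± 2.31 normalised CPM in ferroptotic and 59.7 ± 3.33 in control medium (SD, n = 3 each), a log2 change of 0.14 ± 0.0485 (SE) with an edgeR adjusted p of 0.0157. This call was lost without Hepa1 control replicate 1 (log2 change 0.09, edgeR adjusted p = 0.125) and without Hepa1 ferroptotic replicate 1 (log2 change 0.11, edgeR adjusted p = 0.109). In MEFs Afp had 1, 0 and 1 reads in ferroptotic and 0, 0 and 1 reads in control medium.

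The balance of the fetal to the adult protein's transcript moved with Alb. The ratio is built from the Afp and Alb reads given above, so it restates their changes and is no separate result. Since Alb lay far apart between the media and Afp changed little, the permutation test below could not add to it. Hepa1 had 0.229, 0.203 and 0.213 Afp reads per Alb read in ferroptotic medium, against 1.496, 1.814 and 1.979 in control medium. The ranges did not overlap. The log2 ratio differed by -3.03 between ferroptotic and control medium (exact two-sided permutation test, p = 0.1, the smallest that 3 against 3 libraries allow), and it was -3.14 to -2.94 without any 1 library.

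Rbp4 fell in Hepa1 by a small amount. It had 1645, 1584 and 1692 reads in ferroptotic medium, against 1849, 1859 and 1902 reads in control medium, and the groups did not overlap. The mean was 82.7 ± 1.19 normalised CPM in ferroptotic and 96.6 ± 3.19 in control medium (SD, n = 3 each), a log2 change of -0.23 ± 0.0411 (SE, edgeR adjusted p = 3.04e-05). Rbp4 lies at chr19:38116629-38125281 (minus strand, ENSMUSG00000024990). Its partner in plasma, Ttr (chromosome 18, ENSMUSG00000061808), had 0 reads in all 12 libraries, and the floor of 3 reads over a group allows up to 0.0511 CPM in Hepa1 in ferroptotic and 0.0508 CPM in control medium.

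Apoe was low in Hepa1 and its change did not pass the test there. It had 42, 42 and 50 reads in ferroptotic medium, against 38, 31 and 31 reads in control medium. The ferroptotic libraries lay above the control libraries, with a log2 change of 0.38 ± 0.195 (SE) and an edgeR adjusted p of 0.0908. Apob, which spans chr12:7977648-8016835 (ENSMUSG00000020609), had 0 reads in ferroptotic and 1 read in control medium over 3 Hepa1 libraries each.

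The fibrinogen genes lie side by side on chromosome 3, Fgg at chr3:83007724-83015049 and Fga at chr3:83026076-83033627 on the plus strand and Fgb at chr3:83040141-83049863 on the minus strand. All of them were close to the floor in Hepa1. Fgb had 0, 2 and 2 reads in ferroptotic and 7, 5 and 6 reads in control medium. The groups did not overlap, and the ratio of the summed CPM was 0.224 (95% exact interval 0.0551 to 0.679, counting error only). Fgg had 7, 1 and 3 reads in ferroptotic and 6, 7 and 5 reads in control medium, a ratio of 0.615 whose interval of 0.263 to 1.38 includes no change. Fga had 0 reads in ferroptotic and 2 reads in control medium. Neither Fgb, Fgg nor Fga passed the filter on low counts in Hepa1, and with no filter Fgb was called and Fgg and Fga were not. Ahsg, at chr16:22891277-22899449, had 2, 0 and 0 reads in ferroptotic and 0 reads in control medium.

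In Hepa1, 4 of the 10 genes passed the filter on low counts. Of these Alb and Afp were called higher, Rbp4 was called lower and Apoe was not called, where 29.3% of all genes tested were called higher and 28.8% lower. The filter keeps a gene that is read in only 1 medium, so the count over these 4 says nothing of the other 6.

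**Figure D2:**
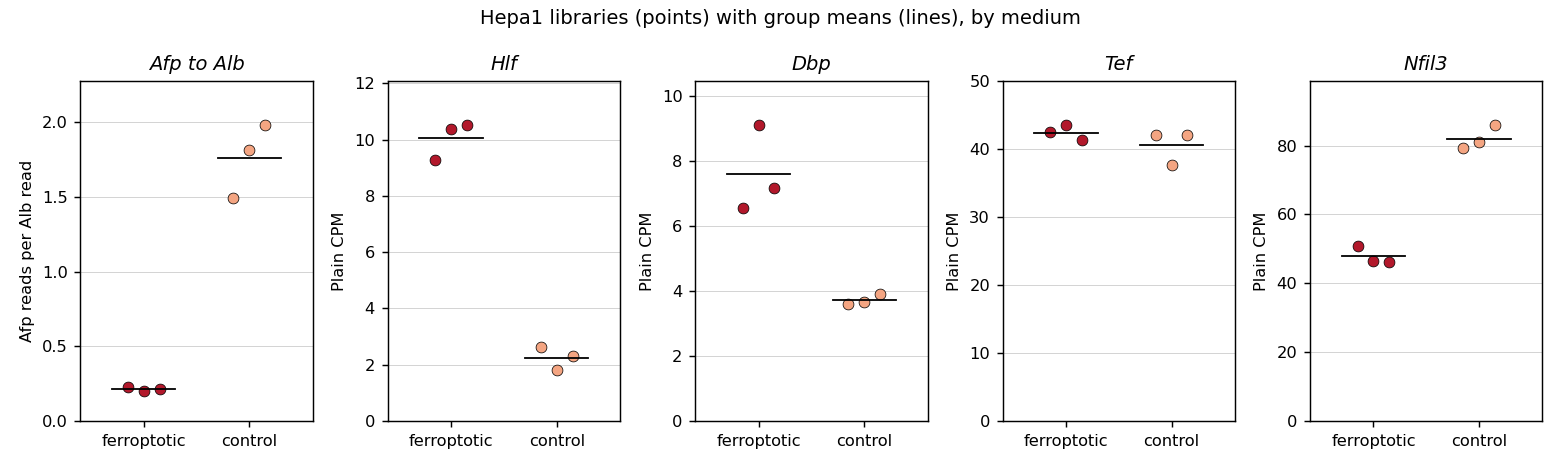
Hepa1 libraries in ferroptotic medium (left in each panel) and control medium (right). The first panel gives Afp reads per Alb read and the others plain CPM of 4 genes of D box factors; points are libraries and lines are means of 3, all on axes that start at 0. The Afp to Alb ratio is 0.203 to 0.229 in ferroptotic and 1.496 to 1.979 in control libraries, and Hlf and Dbp are higher and Nfil3 lower in ferroptotic medium.

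Of 33 genes of transcription factors known to act in the liver, 20 were tested in Hepa1, and 7 were higher, 6 were lower and 7 were not called, close to the shares over all genes tested (29.3% higher, 28.8% lower). Their median log2 change was 0.12, against 0.0045 over all genes tested, and 0.19 without Hepa1 ferroptotic replicate 3. The largest change was that of Hlf, a PAR bZIP activator that binds D boxes. Hlf had 9.28, 10.4 and 10.5 plain CPM in ferroptotic medium, against 2.64, 1.80 and 2.32 in control medium, a log2 change of 2.11 ± 0.148 (SE, edgeR adjusted p = 1.32e-13). Dbp, a relative that was named in the rat for binding the D site of the albumin promoter, had 6.54, 9.09 and 7.17 plain CPM in ferroptotic and 3.61, 3.66 and 3.92 in control medium (log2 change 0.98 ± 0.138, edgeR adjusted p = 4.73e-07). Nfil3, a bZIP repressor that binds the same kind of site, was lower, with 50.9, 46.4 and 46.2 plain CPM in ferroptotic and 79.2, 81.0 and 85.9 in control medium (log2 change -0.83 ± 0.0497, edgeR adjusted p = 3.46e-14). Tef, the other PAR bZIP activator, had a log2 change of 0.02 ± 0.0549 and was not called (edgeR adjusted p = 0.807). Whether these changes bear on Alb was not tested.

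Among the other factors called higher, Tbx3, the gene of a T-box transcriptional repressor, averaged 317 ± 0.286 normalised CPM in ferroptotic and 160 ± 4.49 in control medium (log2 change 0.99 ± 0.0341). Zbtb20, which represses Afp after birth in mouse liver, averaged 291 ± 10.8 normalised CPM in ferroptotic and 218 ± 10.5 in control medium (log2 change 0.41 ± 0.0378, SE). Zhx2, the other postnatal repressor of Afp known in the mouse, was not called (log2 change 0.04 ± 0.0483). The pioneer factor gene Foxa1 was higher by a log2 of 0.35 and the nuclear receptor gene Nr2f2 by 0.20. The genes called lower included those of C/EBP factors, which drive acute phase and metabolic genes. Cebpd changed by -0.87, Cebpb by -0.43 and Cebpg by -0.16 on the log2 scale. Rora, another nuclear receptor gene, changed by -0.47. Nr1i3 (0.44), Onecut2 (0.34), Nr5a2 (0.33), Xbp1 (-0.0035) and Foxa2 (-0.03) were not called. Cebpa had 1 read in each medium over 3 libraries each, and Foxa3 had 0 reads in ferroptotic and 1 in control medium.

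**Figure D3:**
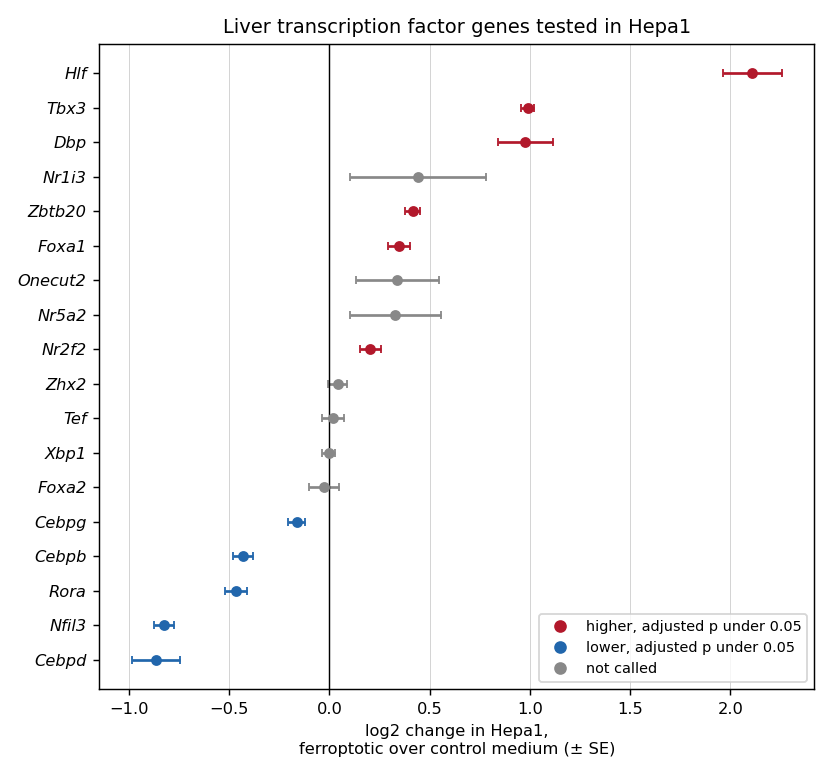
Log2 change in Hepa1, ferroptotic over control medium, of 18 of the 20 liver transcription factor genes that were tested. Points are edgeR estimates with their standard errors, coloured by call; Hlf is highest at 2.11 and Cebpd lowest at -0.87.

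Among serum carriers and protease inhibitors other than the 10 genes, most of those tested were higher in Hepa1. Of 38 listed, 6 were tested, of which 5 were higher and 1 was lower, with a median log2 change of 0.97. Over all genes tested in Hepa1, 29.3% were called higher and 28.8% lower. In this list and the others, the filter on low counts keeps a gene that is read in only 1 medium. A listed gene low in control medium could thus be tested only if it was higher in ferroptotic medium, and the reverse. The list counts therefore say nothing of the listed genes that were not tested. Trf, the gene of the iron carrier transferrin, averaged 1325 ± 64.4 normalised CPM in ferroptotic and 405 ± 13.1 in control medium (SD, n = 3 each), a log2 change of 1.71 ± 0.0354 (SE, edgeR adjusted p = 3.20e-24). Its libraries held 25145, 26092 and 27603 reads in ferroptotic and 7696, 7834 and 7954 reads in control medium, without overlap. Itih2, which encodes a hyaluronan-binding inhibitor chain, changed by 1.89, Kng2, a kininogen gene, by 1.152, Fetub, the gene of fetuin-B, by 0.79 and Cp, the gene of the copper protein ceruloplasmin, by 0.73 on the log2 scale. Gc went the other way. It had 0 reads in all 3 ferroptotic libraries and 12, 12 and 16 reads in the control libraries, at least 13.2-fold lower when set against the floor of 3 reads over the group (edgeR adjusted p = 2.55e-07). Kng2 has a close relative, Kng1, and how reads with several sites were handled is not given in the sources used here, so its value is uncertain.

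Other apolipoproteins and lipoprotein assembly genes showed the same split in number. Of 20 listed, 6 were tested, of which 5 were higher and 1 was lower, with a median of 0.49. The shares over all genes tested were 29.3% higher and 28.8% lower. Apoc4 had 46, 53 and 83 reads in ferroptotic and 20, 8 and 12 reads in control medium (log2 change 2.14 ± 0.303, edgeR adjusted p = 1.23e-07). Lcat, whose enzyme esterifies cholesterol in plasma, changed by 1.36, Lpl, the gene of lipoprotein lipase, by 0.39 and Mttp, whose protein loads lipid onto apolipoprotein B, by 0.39. The call of Apoa2 (log2 change 0.59) was lost in DESeq2 (adjusted p = 0.0572). The fall of Clu (log2 change -0.12) was lost without scaling beyond total counts (edgeR adjusted p = 0.0696) and without Hepa1 ferroptotic replicate 1 (edgeR adjusted p = 0.0566). Of 10 lipoprotein receptor genes 9 were tested, 5 were higher and 2 lower. Sort1, whose product sorts apolipoprotein B particles, changed by 0.62, while Lrp8, a receptor gene for apolipoprotein E, changed by -0.93 and Lsr by -0.37.

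Coagulation factor genes beside fibrinogen were split. Of 18 listed, 7 were tested, 3 were higher and 2 lower (29.3% and 28.8% over all genes tested), with a median of 0.05. Klkb1, the plasma prekallikrein gene, had 38, 32 and 29 reads in ferroptotic and 7, 8 and 3 reads in control medium (log2 change 2.40 ± 0.372, edgeR adjusted p = 2.67e-07), and F8 changed by 0.71. Fgl1, a fibrinogen-like gene, changed by -1.12 and F3, the tissue factor gene, by -0.50. Hgfac, the other one called higher, lost its call in DESeq2 (adjusted p = 0.0922), without Hepa1 control replicate 2 (edgeR adjusted p = 0.0867) and without Hepa1 ferroptotic replicate 2 (edgeR adjusted p = 0.0648).

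Acute phase and interleukin 6 signalling genes were lower more often than higher. Of 16 listed, 11 were tested, 3 were higher and 7 lower (29.3% and 28.8% over all genes tested), with a median of -0.20. Lbp, whose protein carries lipopolysaccharide, averaged 659 ± 19.9 normalised CPM in ferroptotic and 266 ± 6.49 in control medium (log2 change 1.31 ± 0.0335), and the receptor genes Il1r1 and Il6ra changed by 1.32 and 0.64. Lcn2, the gene of an iron-sequestering lipocalin, averaged 103 ± 5.03 normalised CPM in ferroptotic and 325 ± 8.89 in control medium (log2 change -1.66 ± 0.0385, edgeR adjusted p = 3.14e-23). Stat3, the signal transducer gene below the interleukin 6 receptor, changed by -0.51, Socs3, its feedback inhibitor, by -0.79 and Cd14, a lipopolysaccharide receptor gene, by -0.61.

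**Figure D4:**
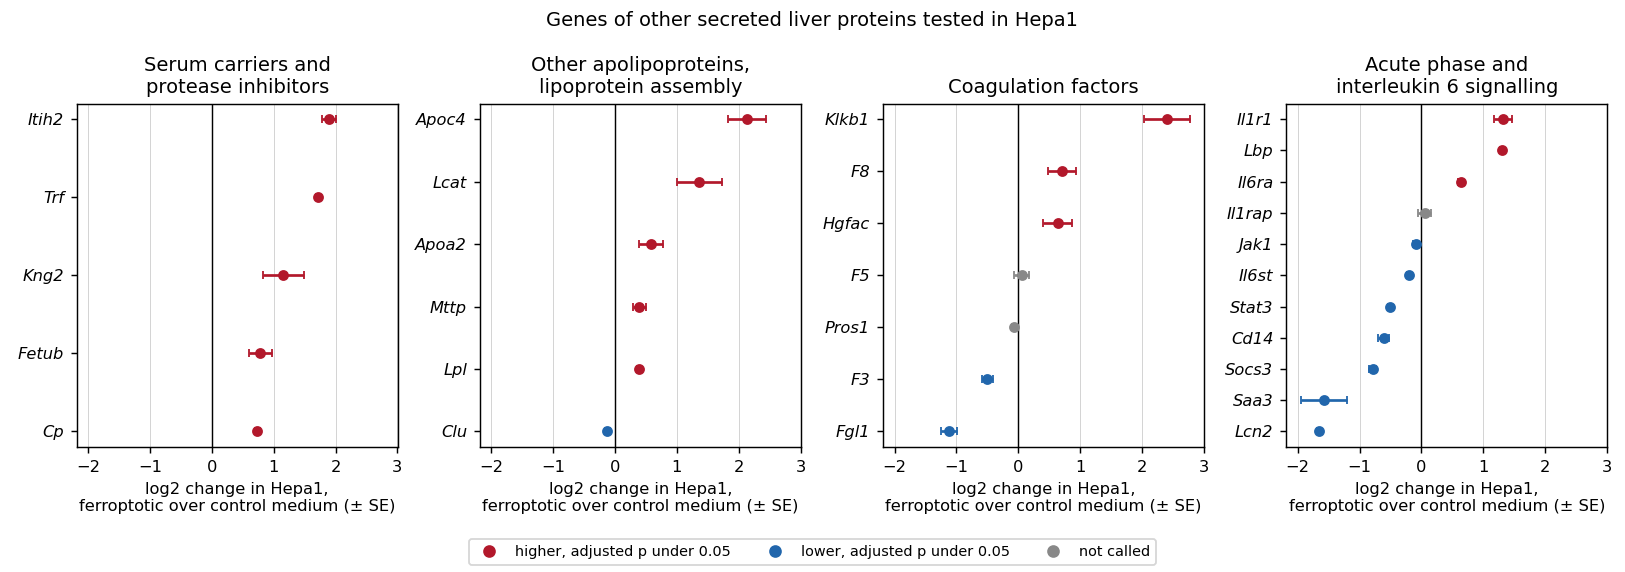
Log2 change in Hepa1, ferroptotic over control medium, of tested genes in 4 lists of secreted liver proteins and their regulators. Points are edgeR estimates with standard errors, coloured by call. Gc, with 0 reads in ferroptotic medium, is left out because its fitted value is no estimate of its fold; Lbp stands at 1.31 and Lcn2 at -1.66.

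Of 17 genes that handle retinoids, the cargo of the Rbp4 protein, 7 were tested, 4 were higher and 1 lower. Their median log2 change was 0.16. For this list and the next 2, the shares over all genes tested were 29.3% higher and 28.8% lower. Stra6, the receptor gene for the Rbp4 protein, changed by 0.28, Aldh1a1, a retinal dehydrogenase gene, by 0.29 and Rara, a retinoic acid receptor gene, by -0.57. Of 13 oncofetal and progenitor liver genes, the company of Afp in liver tumours, 5 were tested, 1 was higher and 3 were lower. Gpc3, a glypican gene, averaged 170 ± 1.54 normalised CPM in ferroptotic and 82.1 ± 3.55 in control medium (log2 change 1.05 ± 0.0394, edgeR adjusted p = 7.11e-19). Igf2bp2 changed by -1.63, Igf2bp1 by -0.49 and Cd24a by -0.32. Of 38 hepatocyte enzymes and transporters only 7 were tested, 5 were higher and 1 lower, among them Adh1 (1.35), Tfr2 (0.94), Ass1 (0.31) and Asl (-0.23).

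Of the other markers, 5 of 11 fibroblast markers were tested and 4 were called higher, 3 of them without Hepa1 ferroptotic replicate 3, whose Col1a2 reads were given above; without it Col1a2 lost its call (edgeR adjusted p = 0.0639). Of 7 macrophage markers 4 were tested, 2 higher and 2 lower. On the log2 scale Adgre1 changed by 5.61 ± 1.03 (SE), Lyz2 by 1.07, Cd68 by -2.83 and Csf1r by -0.55. Of the 7 markers, 4 had more than 9 reads summed over the group in ferroptotic and 3 in control medium. With so wide a standard error, the size of the Adgre1 change is uncertain. The 7 markers summed to 10.5 to 12.9 CPM in ferroptotic and 26.9 to 32.9 CPM in control medium. No endothelial marker was tested. Beside these counts, 29.3% of all genes tested in Hepa1 were called higher and 28.8% lower. Of 6 biliary markers 3 were tested, 1 higher and 2 lower, among them Krt7, a keratin gene of bile ducts, at -0.54, and they summed to 484 to 501 CPM in ferroptotic and 608 to 650 CPM in control medium. The change of Alb was 3.18 on the log2 scale when Hepa1 ferroptotic replicate 3 was left out. Whether the marker genes bear on Alb was not tested.

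MEFs gave other levels of the 10 genes, and Apoe and Rbp4, tested in both cell types, changed in the same direction as in Hepa1. Of 14441 genes tested in MEFs 55% were called, 27.8% higher and 27.2% lower, and of the 10 plasma protein genes 3 were tested and called, Apoe higher and Rbp4 and Fgg lower. Apoe, which fibroblasts and macrophages also make, had 2822, 2784 and 3164 reads in MEFs in ferroptotic medium, against 1365, 1640 and 1422 reads in control medium. It averaged 128 ± 3.41 normalised CPM in ferroptotic and 69.8 ± 4.68 in control medium (SD, n = 3 each), a log2 change of 0.87 ± 0.0369 (SE, edgeR adjusted p = 4.94e-27). Apoe lies at chr7:19696109-19699188 (minus strand, ENSMUSG00000002985).

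Rbp4 was near the floor in MEFs in ferroptotic medium. It had 2, 3 and 0 reads there, against 36, 38 and 24 reads in MEFs in control medium, a log2 change of -4.30 ± 0.699 (SE, edgeR adjusted p = 3.88e-12). With so few reads the size rests on single libraries, from -4.98 without MEFs ferroptotic replicate 2 to -3.71 without MEFs ferroptotic replicate 3. Fgg had 0 reads in all 3 ferroptotic libraries and 18, 28 and 31 reads in the control libraries, at least 26.5-fold lower (edgeR adjusted p = 2.11e-12). Fga, next to it, had 1, 4 and 0 reads in ferroptotic and 12, 16 and 8 reads in control medium, a ratio of 0.135 (95% exact interval 0.0413 to 0.345), and Fgb had 0 reads in ferroptotic and 1 read in control medium. Apob had 0 reads in ferroptotic and 9, 4 and 0 reads in control medium, at least 4.47-fold lower by the summed reads, and at least 2.04-fold without MEFs control replicate 1. Fga and Apob did not pass the filter, and 115 exon bases of Fgg, 5.50% of its exons, overlap the antisense gene Gm30097, and without a stated strand setting the reads of both may be mixed.

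The difference between the responses of Hepa1 and MEFs was tested as an interaction term in a fit of the 12 libraries, which called 44.2% of 15627 genes, 20.9% of them with a negative difference and 23.3% with a positive one. For Rbp4 it was a log2 of 4.09 ± 0.662 (edgeR adjusted p = 2.97e-11), with the fall larger in MEFs, and it ran from 3.50 without MEFs ferroptotic replicate 3 to 4.78 without MEFs ferroptotic replicate 2. For Apoe it was -0.49 ± 0.195 (edgeR adjusted p = 0.0410), with a log2 change of 0.38 in Hepa1, not called there, and 0.87 in MEFs; this call was lost in 7 of 12 fits without 1 library (Hepa1 ferroptotic 1 or 2, Hepa1 control 1 or 3, MEFs ferroptotic 3, MEFs control 1 or 3; -0.55 to -0.39 over the 12), in limma-voom (adjusted p = 0.0857) and with no filter (edgeR adjusted p = 0.0752). Fgg was called as well (edgeR adjusted p = 1.67e-05), but with 0 reads in MEFs in ferroptotic medium its fitted difference depends on the prior count. The response of Alb could not be compared, since MEFs had no Alb reads, and that of Afp was not called (edgeR adjusted p = 0.788) with 3 reads in all over 6 MEF libraries. Among the genes beside the 10, Trf was lower in MEFs in ferroptotic medium (log2 change -1.37 ± 0.0818), a difference from Hepa1 of 3.09, as were Itih2 (-0.67, difference 2.57) and Lbp (-0.52, difference 1.83). Cp was higher in both, by 1.598 in MEFs (difference -0.86). Other changes given above for Hepa1 had the same direction in MEFs. There Nfil3 changed by -1.06, Lcn2 by -1.58, Socs3 by -1.95, Cebpd by -1.64 and Cebpb by -0.64 on the log2 scale. Gpc3 changed by 0.86 and Zbtb20 by 0.68. Kng2 (-2.02), Tfr2 (-1.31) and Aldh1a1 (-0.77) were lower in MEFs but higher in Hepa1. These genes are examples, and the directions were not counted over all named genes.

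Set against MEFs in the same medium, Hepa1 held more Alb, Afp and Rbp4 and less Apoe. These differences cannot be told apart from those of the Bach1 genotype. Each of the 5 tested genes of the 10 was called in both media, where 88.2% of all genes tested were called in ferroptotic medium (41.5% higher, 46.7% lower) and 86.6% in control medium (40.7% higher, 46% lower). Alb was at least 6922-fold higher in Hepa1 than in MEFs in ferroptotic medium and at least 728-fold higher in control medium, both against the floor of 3 reads over the group. The ratio of Afp was 2233 (95% exact interval 618 to 18443) in ferroptotic and 3812 (684 to 150596) in control medium. Rbp4 was higher in Hepa1 by a log2 of 9.50 ± 0.646 in ferroptotic medium, where MEFs held 5 reads (8.90 without MEFs ferroptotic replicate 3 and 10.19 without MEFs ferroptotic replicate 2), and 5.41 ± 0.149 in control medium, and Apoe differed by -6.38 ± 0.128 in ferroptotic and -5.89 ± 0.147 in control medium (SE). Fgg was at least 4.18-fold higher in Hepa1 in ferroptotic medium, but at least 2.29-fold without Hepa1 ferroptotic replicate 1, which held 7 of its 11 reads. In control medium Fgg differed by a log2 of -2.50 ± 0.408 (edgeR adjusted p = 2.26e-08). Without scaling beyond total counts the median log2 difference of all genes was 0.46 in ferroptotic and 0.49 in control medium, against -0.08 in each with it, and the difference of Apoe was -5.84 in ferroptotic and -5.33 in control medium.

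Around Alb the change was not shared by the whole neighbourhood. Of 16 genes starting within 500 kb of the start of Alb, itself included, 13 were tested in Hepa1, 6 were higher and 3 lower. Alb and Afp were among the 6. For comparison, 29.3% of all genes tested in Hepa1 were higher and 28.8% lower. Afm, the nearest downstream gene after Afp and also a relative of albumin, had 0 reads in ferroptotic and 1 read in control medium. At 100.2 kb 5830473C10Rik changed by 0.93 and at 179.8 kb Rassf6 by 0.26. Farther on lie chemokine genes, of which Cxcl15, at 333.6 kb, had 237, 238 and 266 reads in ferroptotic and 9, 16 and 12 reads in control medium (log2 change 4.27 ± 0.243, edgeR adjusted p = 1.19e-18). Cxcl2 changed by -2.51, Cxcl3 by -1.005 and Cxcl1 by -0.65. Ankrd17, whose start lies at -94.3 kb, changed by 0.08 (edgeR adjusted p = 0.0410), a call lost without any 1 of the 6 libraries other than Hepa1 control replicate 2. Of 8 genes within 500 kb of Fga, Plrg1 was the one tested in Hepa1 (log2 change 0.21), beside fibrinogen genes at the floor. Of 45 genes within 500 kb of Apoe, 26 were tested, 4 higher and 11 lower; near it Apoc1 had 13, 3 and 20 reads in ferroptotic and 3, 4 and 0 reads in control medium. The groups overlapped, and the ratio of summed CPM was 5.18 (95% exact interval 2.27 to 13.8, counting error only). The genes in this paragraph were chosen after their values were seen.

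**Figure D5:**
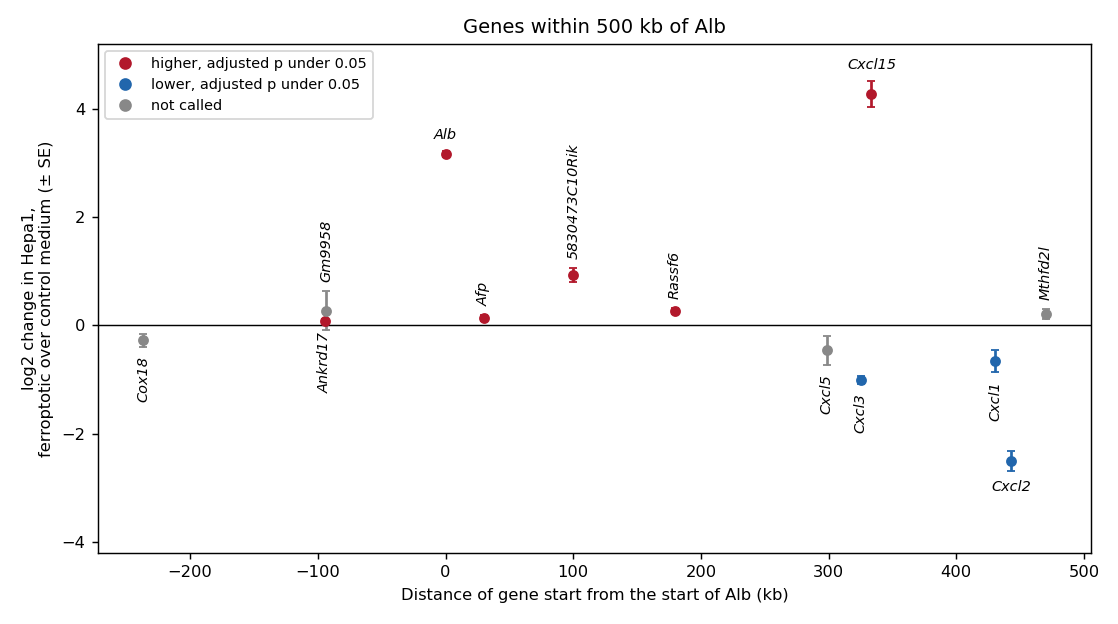
Log2 change in Hepa1, ferroptotic over control medium, of tested genes by the distance of their start from the start of Alb, in kb downstream (positive) or upstream (negative). Points are edgeR estimates with standard errors, coloured by call. Alb (3.16) and Cxcl15 (4.27) stand apart from Afp (0.14), 29.8 kb from Alb.

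The genes whose pattern over all 12 libraries was most like that of each tested gene were found among 11872 protein-coding genes by the root mean square difference of centred log2 values. Alb was nearest to H2-Q1, a major histocompatibility gene, at 0.62, and Slc1a2, a glutamate transporter gene, at 0.65. H2-Q1 had 506 to 535 plain CPM in Hepa1 in ferroptotic medium, 101 to 118 CPM in control medium and at most 0.214 CPM in MEFs, and it has near-identical relatives whose reads may be mixed with its own. For Afp, Arhgap45 was among the 2 nearest, at 0.16. Arhgap45 had 127 to 129 plain CPM in Hepa1 in ferroptotic medium, 97.8 to 108 CPM in control medium and at most 0.416 CPM in MEFs. Apoe was nearest to Mylk, a myosin kinase gene, at 0.13, and Kazn at 0.14, both high in MEFs and higher there in ferroptotic medium, Mylk with 38.8 to 42.7 plain CPM in ferroptotic and 18.2 to 20.3 CPM in control medium. Rbp4 was nearest to F11r, a tight junction gene, at 0.43, and Tes at 0.48. These values describe likeness over 12 libraries in 4 groups, which any gene with the same group means would share.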

How the data were processed

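Raw read counts per Ensembl gene were deposited by the authors, per sample and as 1 table (0 of 665904 values differed). The submitters' processing notes name STAR 2.7.10a, HTSeq 0.9.1, Trimmomatic 0.39 and FastQC 0.11.9 and the build GRCm38 (mm10). No annotation release or strand setting is given in the sources used here. The labels' protocols give 100 ng total RNA as input to NEBNext Ultra II libraries. The table holds 55487 genes, of which GENCODE M21 named 55227, and 5 HTSeq lines, set apart; 2.00 to 2.58% of reads fell on no gene, 3.66 to 4.03% were ambiguous, and the line for alignments that are not unique holds 0. Totals were 18582713 to 23397981 counts.

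Groups came from sample titles. Counts were tested with edgeR 4.0.16 (R 4.3.3) after filterByExpr and TMM scaling, each cell type on its 6 libraries and differences between cell types on all 12; limma 3.58.1 and DESeq2 1.42.0 were alternatives. Normalised CPM are scaled within those fits, and plain CPM are counts over the library's total only. The common dispersion of edgeR corresponded to a variation between replicates of 3.08% for Hepa1 and 2.45% for MEFs. No 2 replicates agreed within sampling noise. Since no label says that replicates were separate cultures, p-values measure only the spread of these samples, possibly technical. Intervals (95%) and floors cover counting error only. Standard errors of log2 changes are Wald values from the fit, not below the Poisson value; p-values come from the quasi-likelihood F test.

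The 10 genes, the lists and the tests were chosen with earlier results of these data known. Genes named are the 10, up to 4 called genes per list and direction with the smallest adjusted p, every listed transcription factor, and the 2 nearest in pattern for each tested gene with a mean of at least 1 CPM (pseudocount 0.5). Kng2, the marker totals, the neighbourhood genes and the motifs were chosen after their values were seen. Some genes under the rule are not reported here.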

Additional observations from a re-analysis of the deposited data

Results flagged for a closer look

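The medium response differed between Hepa1 and MEFs, by an edgeR interaction test over 12 libraries, for 3 of the 5 genes of the 10 that were tested, where 44.2% of all genes tested were called. The log2 difference, Hepa1 minus MEFs, was 4.09 for Rbp4 and -0.49 for Apoe (edgeR adjusted p = 0.0410, lost in 7 of 12 fits without 1 library), and the adjusted p for Fgg was 1.67e-05. It also differed for Trf (3.09), Itih2 (2.57), Lbp (1.83), Cp (-0.86), Tbx3 (1.48) and Dbp (1.09). Of these, Trf, Itih2, Lbp, Tbx3 and Dbp were higher in Hepa1 and lower in MEFs in ferroptotic medium, though the fall of Dbp in MEFs (log2 change -0.11) lost its call without scaling beyond total counts (edgeR adjusted p = 0.341). Tbx3 averaged 317 normalised CPM in Hepa1 in ferroptotic and 160 in control medium, and 1.94 in MEFs in ferroptotic and 2.74 in control medium. Other named genes, among them Nfil3, Lcn2, Socs3, Cebpd, Cebpb, Gpc3 and Zbtb20, changed in the same direction in both cell types. With 3 libraries in each group, no formal outlier test was run; Col1a2 in Hepa1 ferroptotic replicate 3 (368 reads, against 23 and 19 in replicates 1 and 2) stood apart on inspection.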

How the results depend on the processing

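Under 8 other settings (RLE scaling, no scaling beyond total counts, no filter, a CPM filter, DESeq2, limma-voom, a replicate block and all 12 libraries) the genes called numbered 6696 to 7917 in Hepa1 and 6566 to 8168 in MEFs, against 7656 and 7943, and without 1 library 6980 to 7634 and 7369 to 7629. The interaction gave 6276 to 7104 calls, and 6479 to 6748 without 1 library. Hepa1 against MEFs gave 13657 to 13777 in ferroptotic and 13388 to 13564 in control medium without 1 library. Of the 10 genes, 2 to 3 were called in Hepa1 and 3 to 4 in MEFs without 1 library, and with no filter 4 were called in Hepa1 (Fgb added), 5 in MEFs and 8 between the cell types in control medium, where more genes are tested. With the CPM filter 2 were called in MEFs, Apoe and Rbp4, and Fgg was not. Alb kept its direction and its call throughout, at 3.16 to 3.21 under other settings. Without 1 library the ratio of the share of counts on the 10 genes was 2.40 to 2.47, a rise carried by Alb. Without scaling, 58.8% of calls were higher in Hepa1 (50.5% with it), 63.8% in MEFs (50.5%), and 63.9% and 64.5% between the cell types in ferroptotic and control medium (47.1% and 46.95%). Foxa2 (0.020) and Xbp1 (0.043), not called, turned direction without scaling, and without 1 library Foxa2 ran from -0.074 to 0.047, Xbp1 from -0.020 to 0.018 and Tef from -0.036 to 0.047; the cause was not tested. Of 80 named genes called in Hepa1, 11 lost their call under at least 1 alternative (Afp, Clu, Gata4, Hgfac, Rdh10, Dhrs3, Apoa2, Dcn, Sox9, Ankrd17 and Col1a2) and 0 turned direction. An alternative that gave a gene no test was not counted as a loss. Gc, Lcat and Kng2, for example, had values under 7 of the 8 other settings. List counts without Hepa1 ferroptotic replicate 3, which stayed within 1.5 times, and fold bounds without 1 library were added after seeing the data. Same-numbered libraries did not deviate together (correlations of -0.0604 to -0.0388 in Hepa1 and 0.0046 to 0.104 in MEFs), and with a replicate block 3760 genes were called higher and 3677 lower in Hepa1, and 4071 higher and 4002 lower in MEFs, with the calls among the 10 genes unchanged. Depth limits Ttr, Apob, Ahsg, Fga, Fgb and Fgg in Hepa1, which lie at or near the floor.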
